A study of Mus musculus with 6 samples.

Results

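The genes described here are 42 genes of myeloid cells and of inflammatory signalling, measured in the pituitary of male mice. They were taken by symbol from a list of 42 names, a list drawn up with earlier results of these data known, although the rule itself uses no measured value, and all 42 stand in the deposited table, out of 16736 rows. The study compared 2 groups of male mice, labelled RD and HFD, with 3 pituitary libraries each (6 in all). What RD and HFD stand for is not written out in the labels, which name no strain, age or genetic change. Both groups had 16 h of fasting and then 4 h of food before collection. RNA was extracted with a Qiagen kit and selected for poly(A). Nothing says that each replicate is its own animal, and the p-values below therefore cover the spread among 6 libraries, some of which may be technical. Column totals over the listed genes ran from 15702214 to 18111345 counts in RD and from 14185372 to 14384933 in HFD. Depth therefore differed between the groups without overlap.

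The libraries carried the labelled tissue's hormones, with growth hormone (GH1) between 36587 and 71594 CPM, where CPM is a count scaled to a common library total with TMM factors. All 15 markers of myeloid cells among the members were detected in all 6 libraries. RD replicate 3 lay farthest out on the first principal component (-36.2, against -18.5 and -9.68 for the other RD libraries and 19.1 to 24.4 for HFD). For IL1R1, CX3CR1, AIF1, CSF1, CSF1R, TNFRSF1A and the C1q chains, the log2 change without it is given too.

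Macrophages and microglia recognise microbial and tissue signals through Toll-like receptors, which act through the adaptor MYD88 to release NF-kB dimers into the nucleus. NF-kB induces cytokines, chemokines, adhesion molecules and its own inhibitor TNFAIP3 (A20). Interleukin 6 signals through a ligand-binding receptor and the shared subunit gp130 (IL6ST) to STAT3, which induces the inhibitor SOCS3. In the pituitary these receptors are known not only from myeloid cells but also from endocrine and folliculostellate cells, and interleukin 6 family cytokines are known to act on hormone release there.

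The promoters of some of these genes hold the kB motif bound by NF-kB. The choice by name did not use the motif, but it took in genes of the kinds that NF-kB induces. The share of members with the motif is therefore not independent of that choice. RefSeq promoters (GRCm38.p6, 250 bases before to 50 after a start site) were at hand for 31 of the 42 members. The kB motif, searched on both strands, was found in 10 of the 31 (32.3%), against 9.55% of the 27025 genes with a promoter in the table. In each window below, the match closest to the start site among those that lie wholly before it is in capitals, with 10 bases on either side, read 5′ to 3′ on the gene's strand.
TNFAIP3 (A20), chr10:19015403-19015432, minus strand: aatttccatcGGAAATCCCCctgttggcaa
NFKB2, chr19:46304716-46304745, plus strand: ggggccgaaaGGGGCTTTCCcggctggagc
REL, chr11:23771041-23771070, minus strand: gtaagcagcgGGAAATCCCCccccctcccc
TLR2, chr3:83841761-83841790, minus strand: aggacacctgGGGAATTCCCacacggagcc
IL1R1, chr1:40266344-40266373, plus strand: cagggattttGGAATGCCCCcaaggagatg
CSF1, chr3:107760604-107760633, minus strand: gggccttgagGGAAAGTCCCtaggggccag
C1QC, chr4:136892936-136892965, minus strand: tgtgggggagGGGGCTCTCCctgctctggg
IL6, chr5:30013060-30013089, plus strand: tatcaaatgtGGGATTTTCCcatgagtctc
CXCL1, chr5:90891165-90891194, plus strand: ctgtactccgGGAATTTCCCtggcccggag
CXCL10, chr5:92348973-92349002, minus strand: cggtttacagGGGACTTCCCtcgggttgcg
TNFAIP3, REL and CXCL10 have further matches that are not in capitals here, as do NFKB2, TLR2 and CXCL1. Of these 10 genes 7 were abundant enough to be tested between the groups, and none of the 7 was called by edgeR (log2 changes from -0.35 to 0.69, with 2 at an unadjusted p under 0.05). DESeq2 called 1 of them, TNFAIP3. The PU.1 core motif GAGGAA, known from myeloid promoters, was found in 35.5% of the members with a promoter and in 31.3% of all genes. The STAT motif TTCCNGGAA was found in 1 member, ICAM1, and in 1.35% of all genes. Such matches describe letters in these windows and are not measured binding.

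The second sequence shown is the promoter of IL6ST, shown because it had the smallest p-value of the members, from chr13:112463820-112464069 on the plus strand, which ends at the base before the start site. Capitals mark its 2 CCAAT boxes (letters CCAAT, either strand), a motif found in 41.1% of all genes and in 35.5% of the members with a promoter. No kB or STAT match was found in its window.
IL6ST: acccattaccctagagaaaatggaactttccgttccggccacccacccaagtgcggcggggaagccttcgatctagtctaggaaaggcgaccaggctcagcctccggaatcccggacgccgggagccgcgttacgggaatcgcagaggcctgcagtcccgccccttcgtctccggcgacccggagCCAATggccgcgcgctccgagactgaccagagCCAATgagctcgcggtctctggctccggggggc

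Across the 42 members, the shared receptor subunit IL6ST and the endotoxin receptor TLR4 were lower in HFD, and NOS2, the inducible nitric oxide synthase, was higher. The markers of myeloid cells, the C1q chains among them, showed no called change. Of the 42 members, 36 passed the filter on low counts and were tested with edgeR's quasi-likelihood test, adjusted over all 13873 tested genes, with a threshold of 0.05 for a call. The test called 3 of the 36 (8.33%), against 10.5% of all tested genes, so the share of members called lay near the background. By direction, 2 were lower (4.61% of all tested genes were) and 1 higher (5.87%). At an unadjusted p under 0.05 there were 6 of the 36 members, and 3679 of all 13873 tested genes. The later counts at this unadjusted threshold stand against the same background. Later counts of called genes in a list stand against the 10.5% called of all tested genes. The median log2(HFD/RD) of the 36 was -0.02, with 16 above 0 and 20 below, and the median of all tested genes was 0.00. For 6 tested members (16.7%) the RD and HFD libraries did not overlap, and for 32.5% of all tested genes. In bulk tissue, fewer cells of a type and less RNA per cell cannot be told apart, which applies to every difference below.

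**Figure D1:**
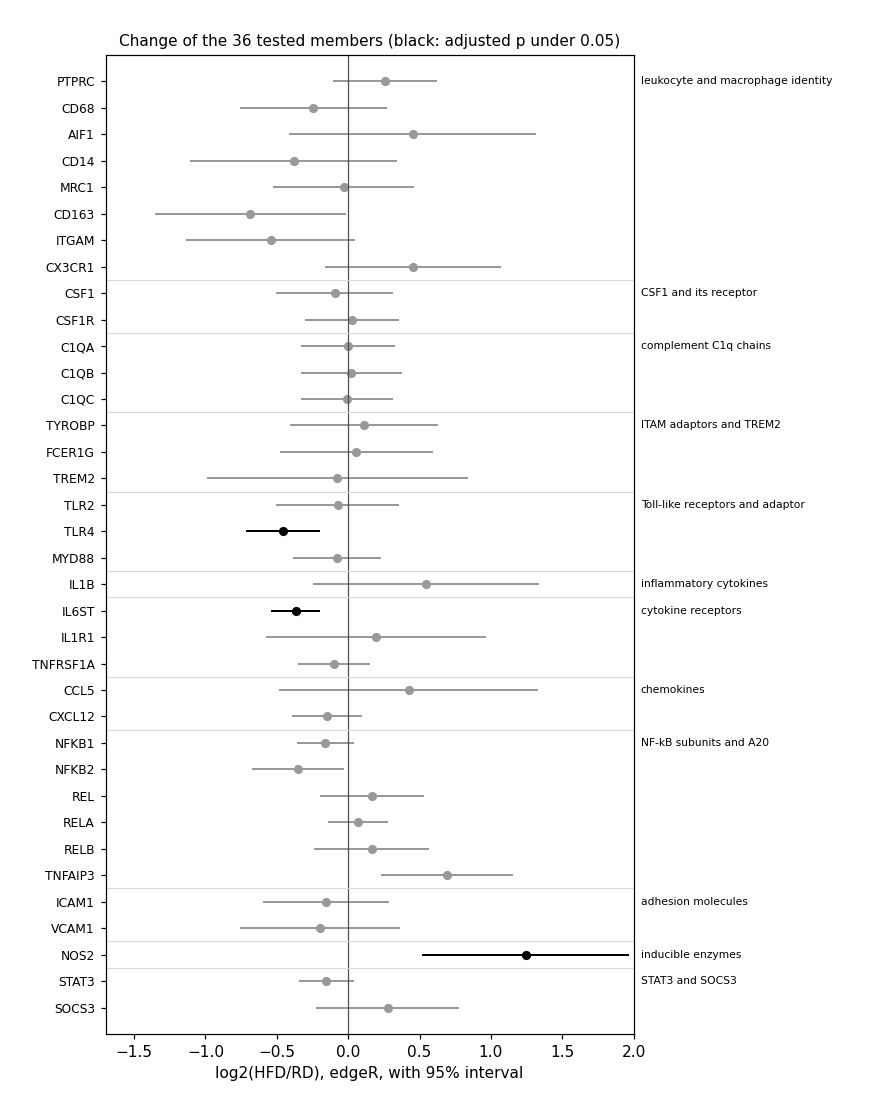
log2(HFD/RD) of the 36 tested members with the 95% interval from edgeR (x axis), one row a gene in the order of roles; black marks the 3 genes with an adjusted p under 0.05. IL6ST and TLR4 lie below 0 and NOS2 above it, and the intervals of most other members include 0.

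The levels of the members differed widely. Per kb of the longest protein-coding transcript, the mean over the 6 libraries of the most abundant tested member was 102 times that of the least abundant. The highest on this per-length scale was TNFRSF1A, the main receptor of tumour necrosis factor, with 42.1 ± 6.50 CPM per kb in the RD group and 39.3 ± 2.501 in the HFD group (SD, n = 3 a group). IL6ST followed at 35.5 ± 2.94 and 27.5 ± 1.22 CPM per kb, then STAT3 at 32.6 ± 3.31 and 29.3 ± 1.68. NFKB1 (19.2 ± 1.92 and 17.1 ± 0.365 CPM per kb) and RELA (17.6 ± 1.17 and 18.4 ± 1.43) came next. In RD, IL6ST and STAT3 lay within their spread of each other, as did NFKB1 and RELA. SOCS3 stood at 12.7 ± 4.35 and 15.4 ± 3.18 CPM per kb. The C1q chains, the highest of the myeloid markers, lay between 11.1 and 12.7 CPM per kb in both groups. At the other end were the cytokines and chemokines of acute inflammation, each under 1 CPM per kb in both groups except IL1B and CCL5. CXCL12, a chemokine made by stromal cells, was far above them. ITGAM, CD163, NOS2 and PTGS2 were also under 1 CPM per kb in both groups.

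**Figure D2:**
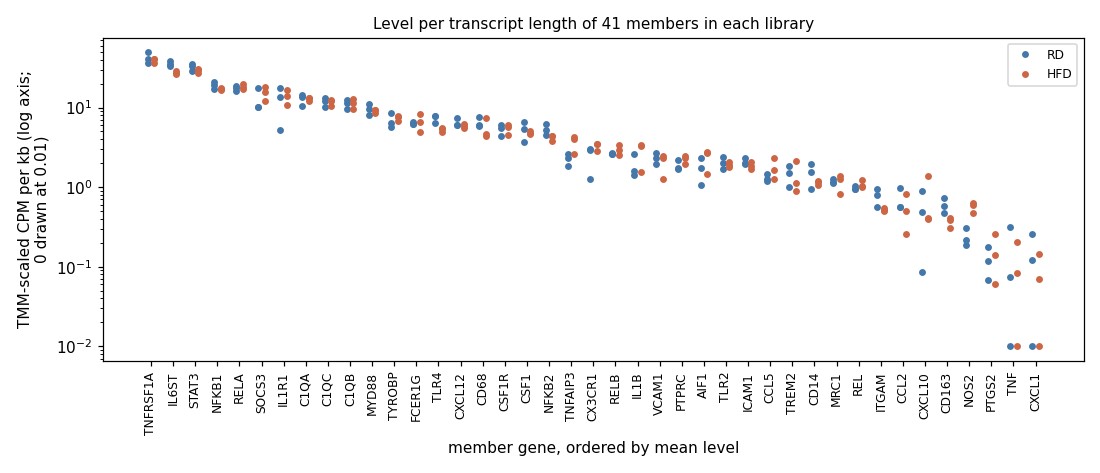
TMM-scaled CPM per kb of transcript (y axis, log scale) for the 41 members with any count, ordered by mean level; each point is a library, RD in blue and HFD in orange. Receptors and transcription factors such as TNFRSF1A, IL6ST and STAT3 are at the left, and TNF and CXCL1 at the right, where libraries with 0 counts are drawn at 0.01.

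The shared receptor subunit was abundant while the cytokine itself was not seen. IL6 (chromosome 5 of mm10, 30013114 to 30019981) had 0 counts in each of the 6 libraries, where a count of 0 allows up to 3 counts, or 0.173 to 0.208 CPM per library (counting error alone). IL6ST (chromosome 13, 112464070 to 112510086), which encodes the signalling subunit gp130 shared by the interleukin 6 family, stood at 303, 285 and 336 CPM in RD replicates 1, 2 and 3 and at 229, 237 and 250.1 CPM in HFD. The lowest RD library was above the highest HFD library. IL6ST fell to 0.775 of its RD level, a log2 change of -0.37 ± 0.07 (SE; edgeR adjusted p = 0.0143). Leaving out HFD replicate 1 (adjusted p = 0.0606) or HFD replicate 2 (0.0711) ended the call, and the log2 change lay between -0.43 and -0.31 with any single library left out.

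Of the partners of gp130, IL6R and OSMR also fell. IL6R, the interleukin 6 receptor (listed by its mouse symbol Il6ra and matched through RefSeq synonyms), stood at 71.3, 64.4 and 67.6 CPM in RD and at 37.8, 40.2 and 37.5 CPM in HFD. It fell to 0.569 of the RD level, a log2 change of -0.81 ± 0.08 (edgeR adjusted p = 0.00094), and was called in each of the 16 other settings tried, with adjusted p of at most 0.0126. OSMR, the oncostatin M receptor subunit that pairs with gp130, stood at 17.7, 17.4 and 14.7 CPM in RD and 9.99, 10.1 and 9.60 CPM in HFD. OSMR fell to 0.597 (log2 change -0.74 ± 0.13, adjusted p = 0.0082), also in each of the 16 settings. LIFR, the leukaemia inhibitory factor receptor, another partner of gp130, was not called. LIFR stood at 254 ± 60.2 CPM in RD against 237 ± 15.3 CPM in HFD (log2 change -0.10 ± 0.14, adjusted p = 0.69). CNTFR, the ciliary neurotrophic factor receptor, lay in the other direction, with groups that overlapped. It was not called either (log2 change 0.32 ± 0.14, adjusted p = 0.17).

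Downstream of gp130, the kinase gene TYK2 fell, from 71.3, 71.5 and 67.3 CPM in RD to 56.7, 59.8 and 57.5 CPM in HFD (log2 change -0.27 ± 0.07, edgeR adjusted p = 0.045). That call was lost with library size only (0.119), with upper-quartile scaling (0.0757), and without any single library other than RD replicate 3 (0.0863 to 0.151). JAK1, the main kinase of gp130, went from 265 ± 9.19 to 233 ± 6.42 CPM without overlap and was not called (adjusted p = 0.079). STAT3 (chromosome 11, 100885098 to 100939540, overlapped by STAT5A on the opposite strand), the transcription factor that gp130 activates, stood at 215, 175 and 200.3 CPM in RD and 187, 178 and 166 CPM in HFD. The groups overlapped, and STAT3 was not called (log2 change -0.15 ± 0.08, adjusted p = 0.28, 95% interval -0.34 to 0.04). SOCS3, its target and feedback inhibitor, stood at 45.2, 26.1 and 25.9 CPM in RD and 40.4, 30.6 and 46.7 CPM in HFD. One RD library, replicate 1, lay within the HFD range, and SOCS3 was not called (log2 change 0.28 ± 0.22, adjusted p = 0.47). Without RD replicate 1 its log2 change was 0.59 (adjusted p = 0.051), the highest over the settings tried, and the lowest was 0.13. CISH, a STAT5-induced inhibitor of the same family, rose 1.36-fold (58.4 ± 5.27 to 79.4 ± 6.37 CPM, log2 change 0.44 ± 0.09, adjusted p = 0.0179), and that call was lost without HFD replicate 1 (0.069) or HFD replicate 3 (0.0691).

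Of 19 tested genes of the interleukin 6 family and JAK/STAT list, which holds no member, 3 fell (IL6R, OSMR and TYK2) and 1 rose (CISH). That is 21.1% of the list against 10.5% of all tested genes. Its median log2 change was -0.10, with 7 genes above 0 and 12 below. Without overlap, 4 were higher in HFD (CISH, STAT5A, STAT5B and SOCS1) and 5 lower (IL6R, OSMR, TYK2, JAK1 and PTPN11). Of all tested genes, 16.9% were higher and 15.6% lower without overlap. The list was drawn up with earlier results of these data known, and whether it differs from other genes was not tested.

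**Figure D3:**
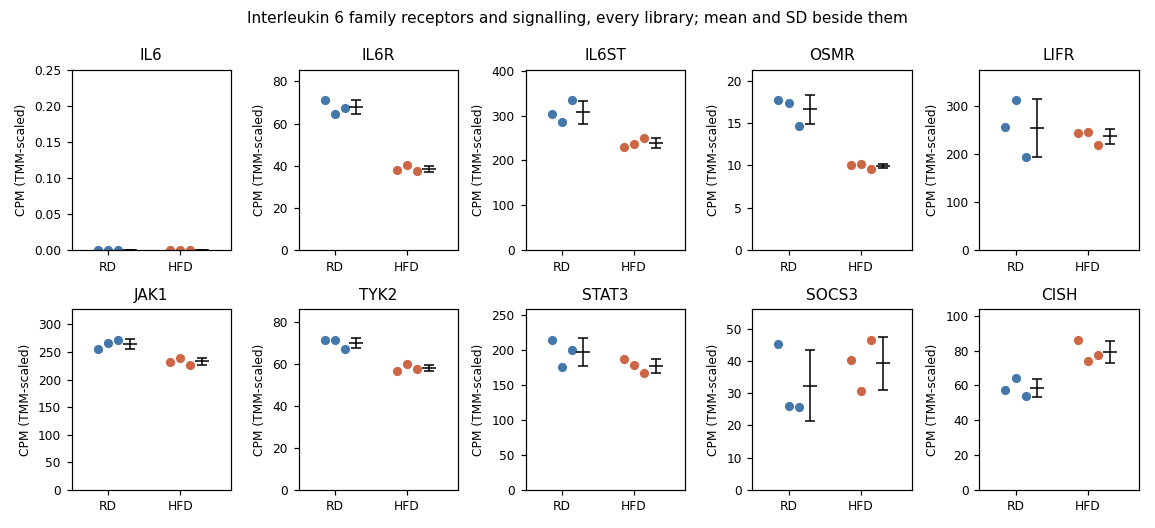
TMM-scaled CPM (y axis, from 0) of interleukin 6, its receptor subunits and signalling genes in each RD (blue) and HFD (orange) library, replicates 1 to 3 from left to right, with the mean and SD beside them. IL6 is at 0 throughout. IL6R, IL6ST, OSMR, TYK2 and JAK1 (not called) are lower in all 3 HFD libraries than in any RD library. CISH is higher, and LIFR, STAT3 and SOCS3 overlap.

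The other cytokine receptors among the members were not called. IL1R1, the signalling receptor of interleukin 1, stood at 78.3, 102 and 29.99 CPM in RD replicates 1, 2 and 3 and at 95.7, 81.5 and 63.1 CPM in HFD. RD replicate 3 was lower than every other library, and the log2 change was 0.20 ± 0.34 with it (edgeR adjusted p = 0.76) and -0.18 without it. TNFRSF1A stood at 87.9, 78.4 and 106 CPM in RD and 87.8, 78.6 and 88.0 CPM in HFD, overlapping, with a log2 change of -0.10 (95% interval -0.34 to 0.15) and 0.02 without RD replicate 3.

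TLR4 (chromosome 4, 66827584 to 66930284), the receptor of bacterial endotoxin, stood at 31.5, 31.5 and 25.9 CPM in RD and at 22.6, 21.9 and 20.1 CPM in HFD. The groups did not overlap. TLR4 fell to 0.728 of its RD level, a log2 change of -0.46 ± 0.11 (edgeR adjusted p = 0.0325). With a library left out the call held without RD replicate 3 (adjusted p = 0.0065). It was lost without RD replicate 1, RD replicate 2 or any single HFD library (0.0688 to 0.137), and with library size as the only scaling (0.0626). The log2 change stayed between -0.55 and -0.39 throughout.

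TLR2, the receptor of bacterial lipoproteins, and the adaptor MYD88 were not called. TLR2 went from 6.12 ± 1.04 to 5.80 ± 0.355 CPM and MYD88 from 18.8 ± 2.88 to 17.7 ± 0.903 CPM, with 95% intervals of the log2 change from -0.50 to 0.35 and from -0.38 to 0.22. Of its partners in endotoxin sensing, CD14 and LY96 were not called either. CD14, which loads endotoxin onto it, stood at 3.18, 1.56 and 2.54 CPM in RD and 1.73, 1.90 and 1.96 CPM in HFD. LY96 (MD-2), the subunit that binds endotoxin, had a log2 change of -0.35 ± 0.24 (adjusted p = 0.40). In the list of other Toll-like receptor and interleukin 1 pathway genes 1 of 23 tested genes was called (4.35%, against 10.5% of all tested genes). This was IL18, an interleukin 1 family cytokine, which rose 1.702-fold from 6.08 ± 1.21 to 10.4 ± 1.78 CPM (log2 change 0.77 ± 0.20, adjusted p = 0.0386). Its call was lost without RD replicate 2 (0.108), RD replicate 3 (0.0671), HFD replicate 2 (0.153) or HFD replicate 3 (0.128).

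NOS2 (chromosome 11, 78920787 to 78960254), a classical product of activated macrophages that other cells can also induce, was the one member that rose. It was scarce, with 13, 14 and 22 counts in RD and 36, 39 and 29 counts in HFD. On the CPM scale it stood at 0.795, 0.911 and 1.27 in RD and at 2.498, 2.65 and 1.96 in HFD, without overlap. The rise was 2.37-fold, a log2 change of 1.24 ± 0.32 (edgeR adjusted p = 0.0386, 95% interval 0.52 to 1.96). NOS2 was not called by DESeq2 (adjusted p = 0.0561), and with a library left out it was called without RD replicate 3 (0.0396) but not in the other 5 cases (0.0821 to 0.137). Its log2 change ranged from 1.10 to 1.46 over all settings. PTGS2, the inducible cyclooxygenase, was below the filter, with 5 to 12 counts in RD and 4 to 17 in HFD.

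**Figure D4:**
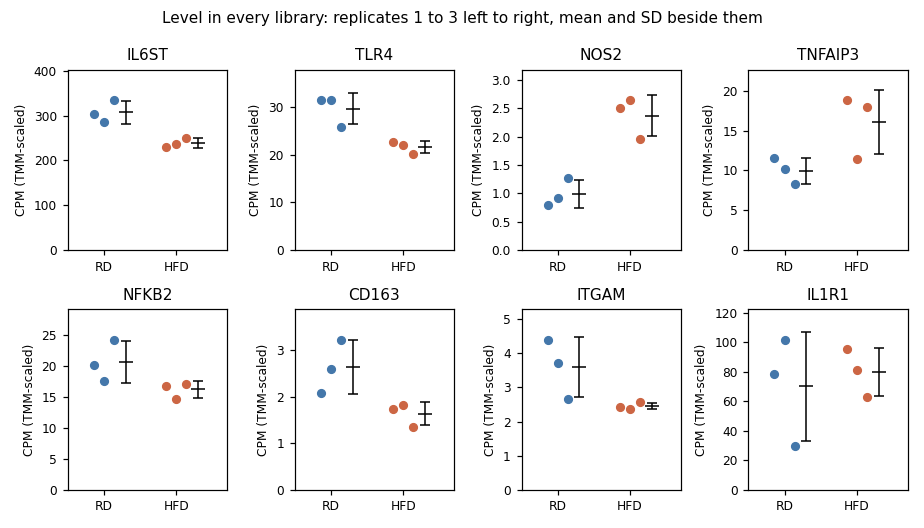
TMM-scaled CPM (y axis, from 0) of 8 members in each RD (blue) and HFD (orange) library, with the mean and SD beside the points. IL6ST, TLR4, NFKB2, CD163 and ITGAM are lower and NOS2 higher in HFD without overlap, of which IL6ST, TLR4 and NOS2 were called; TNFAIP3 overlaps by 1 library, and IL1R1 is lowest in RD replicate 3.

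Among the NF-kB genes, none of the 6 members was called by edgeR (2 at an unadjusted p under 0.05, and 1, TNFAIP3, called by DESeq2). TNFAIP3 (chromosome 10, 19000910 to 19015657), the ubiquitin-editing inhibitor of NF-kB whose promoter carries the kB match shown above, came closest and is described for that reason, after its values were seen. It stood at 11.5, 10.2 and 8.26 CPM in RD and at 18.9, 11.5 and 17.98 CPM in HFD. HFD replicates 1 and 3 were above all RD libraries and HFD replicate 2 was level with RD replicate 1. The log2 change was 0.69 ± 0.20 (edgeR adjusted p = 0.0596). It passed without HFD replicate 2 (0.0346), by DESeq2 (0.0194) and with library size only (0.0459), and not in the other 13 settings (up to 0.21).

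NFKB2, the precursor of p52 in the non-canonical pathway, stood at 20.1, 17.6 and 24.2 CPM in RD and 16.8, 14.6 and 17.1 CPM in HFD. The groups did not overlap, by 0.48 CPM between the nearest libraries, and NFKB2 was not called (log2 change -0.35 ± 0.14, adjusted p = 0.15). PSD overlaps NFKB2 on the opposite strand, and whether counting used strand is not known. NFKB1, the precursor of p50, went from 78.8 ± 7.91 to 70.6 ± 1.502 CPM (log2 change -0.16 ± 0.09, adjusted p = 0.28). The transactivating subunits RELA (log2 change 0.07 ± 0.09), RELB (0.16 ± 0.18) and REL (0.17 ± 0.16) had intervals that include 0. Of 24 other genes of the pathway 1 was called (4.17%, against 10.5% of all tested genes). This was IKBKB, the catalytic kinase that marks the inhibitors for degradation. IKBKB fell from 92.3, 83.4 and 89.8 CPM in RD to 69.7, 76.9 and 68.0 CPM in HFD (log2 change -0.31 ± 0.08, adjusted p = 0.0392). The call was lost with library size only (0.0883), with upper-quartile scaling (0.0572) and without any library other than RD replicate 3 (0.0523 to 0.156). NFKBIA, the inhibitor that NF-kB induces most directly, had a log2 change of 0.06 ± 0.13 (adjusted p = 0.80).

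Inflammatory cytokines and chemokines were near the floor of detection or not called. TNF had 2, 8 and 0 counts in RD and 0, 2 and 5 in HFD, with RD replicate 2 at 4.26 times the next RD library. CXCL1, a neutrophil chemokine, had at most 4 counts in a library, and CCL2, a monocyte chemokine, 7 to 13 counts in RD and 3 to 10 in HFD. CXCL10, an interferon-induced chemokine, had 20, 10 and 2 counts in RD and 8, 8 and 28 in HFD, with HFD replicate 3 at 3.41 times the next HFD library. These 4 genes, IL6 and PTGS2 were the 6 members not tested. IL1B, which encodes interleukin 1 beta, stood at 3.49, 1.95 and 2.14 CPM in RD and 4.44, 2.11 and 4.53 CPM in HFD, an uncalled difference (log2 change 0.54 ± 0.35, edgeR adjusted p = 0.36). CCL5, a T cell chemokine, stood between 0.636 and 0.781 CPM in RD and between 0.679 and 1.25 CPM in HFD, also not called. CXCL12 had a log2 change of -0.15 ± 0.11 (adjusted p = 0.41). Of the other tumour necrosis factor receptor family genes 0 of 15 were called by edgeR (4 at an unadjusted p under 0.05, 1 called by DESeq2 and 0 by limma-voom). Of the other chemokines and their receptors 0 of 8 were called by edgeR, DESeq2 or limma-voom (1 at an unadjusted p under 0.05).

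The adhesion molecules of activated endothelium were not called. ICAM1 stood at 4.96, 5.86 and 5.03 CPM in RD and 4.23, 4.69 and 5.27 CPM in HFD. VCAM1 stood at 6.85, 9.18 and 8.15 CPM in RD and 4.37, 8.56 and 8.11 CPM in HFD. HFD replicate 1 had the lowest VCAM1 of the 6 libraries, and without it the log2 change moved from -0.20 to 0.05. The same library had the lowest summed level of 6 pituicyte markers, the glial cells of the posterior lobe (111 CPM, against 190 to 310 CPM in RD and 228 to 237 CPM in the other HFD libraries). It also had the lowest sum of the mural and fibroblast markers (411 CPM, against 459 to 464 CPM in RD). Of these, DCN (54.4 CPM), LUM, ACTA2 and COL1A1 were lowest there, and PDGFRB, RGS5, PDGFRA and TAGLN were not. Its endothelial markers summed to 439 CPM, within the RD range. The part of lobe composition in the VCAM1 value was not tested.

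No myeloid marker was called. The summed level of the 15 was 129.7, 127 and 100.2 CPM in RD and 109.6, 131 and 126 CPM in HFD, with RD replicate 3 the lowest and HFD replicate 1 next. The count called was 0 of 15 by edgeR, against 10.5% of all tested genes. It was 0 in each of the 16 other settings too, DESeq2 among them, and 1, CD163, had an unadjusted p under 0.05. Their median log2 change was 0.00, with 7 above 0 and 8 below. The half-width of the 95% interval of the log2 change ran from 0.32 to 0.91 over these genes. Smaller changes of single genes could therefore not be seen here. These intervals are not adjusted over all tested genes, and a call needs a larger change. For CD163 the interval, -1.35 to -0.02, left out 0 without a call.

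The 3 chains of complement C1q, made in tissue mostly by macrophages and microglia and encoded side by side on chromosome 4, had between 149 and 243 counts a library. C1QA stood at 14.7, 14.1 and 10.9 CPM in RD and 13.5, 12.6 and 13.6 CPM in HFD. C1QB stood at 12.2, 13.3 and 10.6 CPM in RD and 10.3, 13.8 and 12.5 CPM in HFD, and C1QC at 14.4, 15.8 and 12.2 CPM and 12.5, 15.1 and 14.5 CPM. In each case the HFD values lay within or just beyond the RD range. The 3 log2 changes were 0.00 ± 0.15, 0.02 ± 0.16 and -0.01 ± 0.14, with 95% intervals that end at -0.33 and 0.37 at the widest. Without RD replicate 3, the lowest RD library for each chain, they were -0.13, -0.07 and -0.11. CSF1R, the receptor on which macrophage survival depends, went from 25.0 ± 3.73 to 25.4 ± 3.61 CPM (log2 change 0.03 ± 0.14, and -0.10 without RD replicate 3). Its ligand CSF1 went from 21.6 ± 5.89 to 20.2 ± 0.901 CPM (-0.09 ± 0.18, and -0.30 without RD replicate 3).

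The immunoreceptor adaptors TYROBP (DAP12) and FCER1G and the lipid-sensing receptor TREM2 had log2 changes of 0.11 ± 0.23, 0.06 ± 0.24 and -0.08 ± 0.41. TREM2 rested on 14 to 34 counts a library. PTPRC (CD45), carried by all leukocytes, went from 9.53 ± 1.34 to 11.4 ± 1.298 CPM (0.26 ± 0.16, edgeR adjusted p = 0.34). CD68, a lysosomal glycoprotein of phagocytes, stood at 9.36, 7.42 and 7.22 CPM in RD and 5.41, 5.71 and 9.12 CPM in HFD (adjusted p = 0.54). AIF1 (IBA1), a calcium-binding protein of microglia and macrophages, lay between 0.925 and 2.02 CPM in RD and between 1.28 and 2.45 CPM in HFD (log2 change 0.45, adjusted p = 0.50, and 0.19 without RD replicate 3). CX3CR1, the fractalkine receptor of microglia, stood at 13.6, 13.02 and 5.72 CPM in RD and 12.7, 15.7 and 15.8 CPM in HFD. As for IL1R1, RD replicate 3 was the low library, and the log2 change moved from 0.46 ± 0.27 (adjusted p = 0.33) to 0.14 without it.

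Of the scavenger and mannose receptors typical of perivascular macrophages, CD163 and MRC1 differed in pattern. CD163, the haemoglobin scavenger receptor (chromosome 6, 124304656 to 124330527), stood at 2.08, 2.60 and 3.24 CPM in RD and 1.73, 1.83 and 1.35 CPM in HFD, without overlap. Its log2 change of -0.69 ± 0.30 was not called (edgeR adjusted p = 0.18, and 0.13 to 0.40 in the other settings), at 20 to 56 counts a library. MRC1 (CD206) stood at 5.996, 6.77 and 6.18 CPM in RD and 4.37, 7.40 and 6.76 CPM in HFD, with a log2 change of -0.03 ± 0.22. ITGAM (CD11b), the integrin of monocytes, neutrophils and microglia, stood at 4.41, 3.71 and 2.66 CPM in RD and 2.43, 2.38 and 2.57 CPM in HFD. ITGAM did not overlap either, by 0.0897 CPM, and was not called (log2 change -0.54 ± 0.26, adjusted p = 0.22). The difference between the changes of CD163 and MRC1 was not tested. Other listed genes of tissue macrophages did not share one direction, and none was called. Their log2 changes were 0.61 ± 0.29 for FOLR2, 0.05 ± 0.09 for STAB1, -0.08 ± 0.26 for MS4A7 and -0.23 ± 0.49 for F13A1. LYVE1, below the filter, had 1, 7 and 5 counts in RD and 17, 9 and 12 in HFD.

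**Figure D5:**
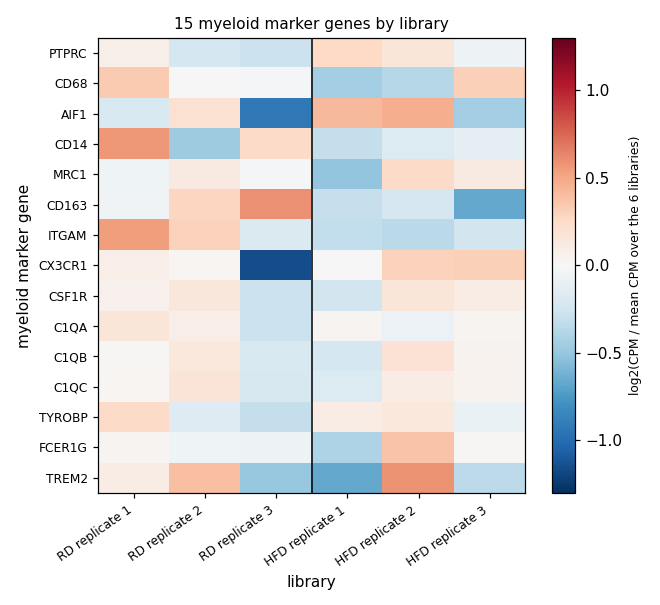
Level of the 15 myeloid markers (rows) in each library (columns, RD left and HFD right of the line), as log2 of CPM over the gene's mean of the 6 libraries. RD replicate 3 is low for CX3CR1 and AIF1, HFD replicate 1 for MRC1 and TREM2, and CD163 and ITGAM are lower in all 3 HFD libraries.

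Among 28 other tested myeloid genes 3 rose and 0 fell (10.7% called, against 10.5% of all tested genes), with a median log2 change of 0.06. CD74, the invariant chain of MHC class II, stood at 70.4, 75.6 and 63.2 CPM in RD and 86.9, 95.02 and 88.8 CPM in HFD (log2 change 0.37 ± 0.09, edgeR adjusted p = 0.0246). CYBB, the catalytic subunit of the phagocyte NADPH oxidase, stood at 6.85, 7.75 and 6.13 CPM in RD and 10.5, 11.5 and 10.5 CPM in HFD (0.65 ± 0.15, adjusted p = 0.0277). CSF2RA, a receptor subunit for granulocyte-macrophage colony-stimulating factor, stood at 33.5, 24.7 and 24.7 CPM in RD and 43.4, 35.6 and 39.1 CPM in HFD (0.51 ± 0.14, adjusted p = 0.041). These calls depended on single libraries. CD74 was not called without any single HFD library (0.0565 to 0.11), CYBB was called without RD replicate 2 alone (0.053 to 0.112 otherwise), and CSF2RA without RD replicate 1 alone (0.0671 to 0.134 otherwise). The lineage factor gene SPI1 (PU.1), with 1.502 to 2.45 CPM in RD and 2.11 to 2.64 CPM in HFD, was not called.

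Markers of other cell types give the company these values keep. Of the T cell list 0 of 3 tested genes were called by edgeR (0 at an unadjusted p under 0.05, and 0 by DESeq2), and the list's summed level was 6.70 to 8.27 CPM in RD and 7.13 to 8.12 CPM in HFD. In the neutrophil list LCN2 (lipocalin 2), which epithelial cells also make, fell from 32.3 ± 2.38 to 21.7 ± 2.97 CPM (-0.57 ± 0.12, adjusted p = 0.0179). That call was lost without HFD replicate 3 (0.0742). The 4 other listed neutrophil genes together summed to 4.05 to 11.7 CPM in RD and 2.97 to 7.49 CPM in HFD. Of these, MPO, the granule peroxidase, had 0 counts in all RD libraries and at most 4 in HFD.

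Of the mast cell markers, FCER1A had 0 counts in all libraries, CPA3 at most 11 and TPSB2 at most 14. The list's summed level, 13.3 to 23.9 CPM in RD and 17.6 to 29.9 CPM in HFD, was mostly KIT, which other cells share. Erythroid markers summed to 63.1 to 103 CPM in RD and 53.0 to 121 CPM in HFD (0 of 2 called by edgeR or DESeq2). Endothelial markers (0 of 8 called by edgeR or DESeq2, 3 at an unadjusted p under 0.05) summed to 437 to 448 CPM in RD and 430 to 477 CPM in HFD, and mural and fibroblast markers (0 of 7 by either tool, and 1 at that unadjusted p) to 459 to 464 CPM and 411 to 503 CPM. Of 6 tested folliculostellate and stem cell markers, ALDH1A2, a retinoic acid synthesis enzyme, rose (0.43 ± 0.09, edgeR adjusted p = 0.0216). Its call was lost without any library other than RD replicate 3 (0.0513 to 0.0867). The 5 other tested markers of that list were not called, and the list's median log2 change was -0.04, with 2 above 0 and 4 below. Its summed level, in which ALDH1A2 was the largest, was 126 to 136 CPM in RD and 140 to 157 CPM in HFD. The part of any of these cell types in the values of IL6ST, TLR4 and NOS2 was not tested.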

How the data were processed

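Per the labels, polyadenylated RNA of whole pituitary was sequenced in 3 RD and 3 HFD libraries. The authors deposited 1 table of whole-number counts, a row per gene symbol, which is not normalized. The genome build was mm10, per the submitters' processing notes. For the aligner, the counter and their annotation the sources used here give nothing. Counts of 1 to 10 were even in 64.0% to 67.0% of cases, and above 200 counts in 48.9% to 50.4%. The cause was not tested, and the limits given for 0 counts may be too low.

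The quasi-likelihood test of edgeR 4.0.16 (R 4.3.3) compared HFD with RD, two-sided, with TMM factors. The filterByExpr filter asked for 10 counts and a total of 15. Benjamini-Hochberg adjustment covered 13873 genes, with calls at 0.05. SE is the log2 change over the square root of F. Levels are TMM-scaled CPM, mean ± SD. Lengths and coordinates are from GENCODE M21. Alternatives were DESeq2 1.42.0, limma-voom (limma 3.58.1), other scalings and filters, halved counts, a replicate block and each library left out.

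The members and lists were chosen with earlier results of these data known. All called members, members without overlap, those with 1 library at 3 times its group, and the 6 highest per length are described in full, with up to 4 called genes per other list. The CCAAT box was added after the IL6ST result was seen. One marker list is not reported here.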

Additional observations from a re-analysis of the deposited data

How the results depend on the processing

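Of the 36 tested members, 32 were called in none of the 17 fits, and 4 (IL6ST, TLR4, NOS2 and TNFAIP3) in at least 1. The member called higher was 1 (NOS2, but TNFAIP3 by DESeq2 and without HFD replicate 2), 2 with library size only, and 0 with the replicate block. Members called lower were 2, but 1 with library size only and 1 with the block. With a library left out these counts ran from 0 to 1 and from 0 to 2, and the called genes of the other pathway lists, 9 in all, from 2 to 7. All called genes, 1453, ran from 431 to 1523, with 701, 490 and 431 on leaving out HFD replicates 1, 2 and 3 and 890 on leaving out RD replicate 2. Deviations from the group means correlated between same-numbered RD and HFD libraries at -0.127, 0.004 and -0.097. With 3 libraries a group, such values cannot decide whether the numbers pair the samples, and the labels do not say. The replicate block gave 808 called genes, 5 of them in the pathway lists, and ended the calls of TLR4 and NOS2 (adjusted p = 0.0547 and 0.0962), of TYK2, IKBKB, IL18 and CYBB in those lists (0.11, 0.0994, 0.0908 and 0.0591) and of the marker ALDH1A2 (0.0574). With library size only, the share of calls in the higher direction was 72.5%, and with TMM 56.0%.

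The direction of 14 members that were not called turned in some setting. With upper-quartile factors C1QA was at 0.03, C1QC at 0.02 and MRC1 at 0.00, with library size only at 0.06, 0.06 and 0.04. By limma-voom C1QA was at 0.02 and C1QC at 0.00. With the strict filter C1QA was at 0.00 and with the replicate block at 0.01. With a library left out the log2 changes ran from -0.18 to 0.16 for MRC1, -0.30 to 0.10 for CSF1, -0.10 to 0.14 for CSF1R, -0.13 to 0.08 for C1QA, -0.08 to 0.13 for C1QB, -0.11 to 0.07 for C1QC, -0.01 to 0.28 for TYROBP, -0.15 to 0.23 for FCER1G, -0.53 to 0.15 for TREM2, -0.19 to 0.05 for TLR2, -0.20 to 0.02 for MYD88, -0.18 to 0.56 for IL1R1, -0.20 to 0.02 for TNFRSF1A and -0.37 to 0.05 for VCAM1. The cause was not tested. At 3 counts a library, 0.173 to 0.208 CPM, the cytokines IL6, TNF and CXCL1 lie at the limit of this depth.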
